A study of Homo sapiens with 12 samples.

Results

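The human forkhead family was followed across BEAS-2B cells treated with TGF-β1, dexamethasone or both. Members were the table rows whose Entrez identifier carries a symbol made of FOX, one letter from A to S and a number, with or without a letter and number after it. The table held 49 such genes among its 28395 gene identifiers, and 3 further RefSeq symbols of this form (FOXL3, FOXN3P1 and FOXN3P2) were not analysed here. A member was counted as expressed at 1 CPM (a read count scaled to library size after TMM) or more in each of the 3 libraries of at least 1 group. By this measure 21 members were expressed, and the same 21 had enough reads to be tested. The other 28 stayed low, with 1 to 122 reads over all 12 libraries.

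BEAS-2B is an immortalised line of human bronchial epithelial cells. Each of the 4 groups had 3 libraries, labelled as biological triplicates, and all cells were first kept for 24 h without serum or steroid. Cells given both agents received TGF-β1 at 40 pM for 24 h and then dexamethasone, a synthetic glucocorticoid, at 30 nM for another 4 h. The dexamethasone group received only the 30 nM dexamethasone, for 4 h. The TGF-β1 group received only the 40 pM TGF-β1, for 24 h, and the control group received neither agent. Whether the TGF-β1 group and the group given both agents were harvested at the same time was not examined here. The model is 1 cell line in submerged culture, and 1 field of the labels names A549 cells as the line grown while the source and cell type fields name BEAS-2B.

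Forkhead proteins bind DNA through a winged-helix domain, and several of them, the FOXA group first, can bind sites within closed chromatin. FOXO proteins are held in the cytoplasm when insulin or growth factors activate the kinases AKT and SGK1, and enter the nucleus when that signal falls, where they switch on genes of fasting, stress resistance and cell-cycle arrest. In the lung, FOXA1 and FOXA2 shape epithelial differentiation, FOXJ1 drives the motile cilia programme, FOXF1 marks the mesenchyme, and FOXP1, FOXP2 and FOXP4 act as repressors in the developing mouse airway. Transcript levels say nothing of where the protein sits or whether it is phosphorylated.

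The libraries held 5861591 to 19727235 counted reads, with the libraries of replicate 3 (at least 17968961) deeper than those of replicates 1 and 2 (at most 7008203). All 12 epithelial markers examined, among them KRT5, CDH1 and EPCAM, stood at 1 CPM or more in every library. Of 6 ciliated-cell markers in the table, FOXJ1, DNAI1, RSPH1 and TPPP3 were under 1 CPM in every library and CCDC39 was at 1 CPM or more in every library. Of 10 leukocyte markers 7, PTPRC among them, were under 1 CPM in every library, and CD14 and CD68 were at 1 CPM or more in every library. Of 9 endothelial markers CLDN5, ESAM and VWF were under 1 CPM in every library, and EGFL7 was at 1 CPM or more in each. Of 10 fibroblast markers DCN, LUM, DPT and TCF21 were under 1 CPM in every library. FBLN1, PDGFRB and THY1 were at 1 CPM or more in every library. The fibroblast markers together summed to 1199 to 1460.0 CPM with both agents, 558 to 778 with dexamethasone, 933 to 1016 with TGF-β1 and 479 to 637 in control. All 12 libraries were fitted together in edgeR, and adjusted p-values are Benjamini-Hochberg values from its quasi-likelihood test on 13469 genes, with 0.05 as the threshold. In bulk RNA, fewer cells of a kind and less RNA per cell cannot be told apart.

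The promoter sequences of 4 members are shown because their transcripts carry the main patterns: FOXO1 had the largest rise with dexamethasone, FOXP4 and FOXQ1 were highest with both agents, and FOXD1 was highest with TGF-β1. Each line gives the 250 bases before the start of the gene, 5′ to 3′ on the coding strand, from RefSeq on GRCh38.p14. FOXO1 lies on the minus strand (chr13:40666642-40666891), FOXP4 on the plus strand (chr6:41546131-41546380), FOXQ1 on the plus strand (chr6:1311848-1312097) and FOXD1 on the minus strand (chr5:73448778-73449027). Capitals mark a match to the short SMAD motif CAGAC.
FOXO1: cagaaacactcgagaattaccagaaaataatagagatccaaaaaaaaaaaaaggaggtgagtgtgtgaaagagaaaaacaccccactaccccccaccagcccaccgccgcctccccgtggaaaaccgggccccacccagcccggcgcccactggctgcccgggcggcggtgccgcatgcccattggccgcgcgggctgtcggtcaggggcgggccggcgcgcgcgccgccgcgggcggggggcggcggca
FOXP4: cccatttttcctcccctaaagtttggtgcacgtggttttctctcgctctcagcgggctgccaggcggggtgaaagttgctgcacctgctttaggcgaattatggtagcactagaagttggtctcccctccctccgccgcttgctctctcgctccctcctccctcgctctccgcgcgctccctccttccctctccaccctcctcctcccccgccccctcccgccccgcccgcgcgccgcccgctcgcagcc
FOXQ1: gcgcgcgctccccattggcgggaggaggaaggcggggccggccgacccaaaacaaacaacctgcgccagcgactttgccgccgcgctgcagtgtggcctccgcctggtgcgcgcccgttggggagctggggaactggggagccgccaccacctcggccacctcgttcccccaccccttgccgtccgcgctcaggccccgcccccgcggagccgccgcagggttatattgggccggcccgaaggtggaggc
FOXD1: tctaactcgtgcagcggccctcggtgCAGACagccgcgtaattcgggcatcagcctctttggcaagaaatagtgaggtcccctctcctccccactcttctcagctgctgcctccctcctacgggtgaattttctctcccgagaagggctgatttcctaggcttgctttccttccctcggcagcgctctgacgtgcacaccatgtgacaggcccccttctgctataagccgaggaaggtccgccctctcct

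RefSeq gave such a promoter for 16 of the 21 tested members, and 5 motifs were searched on both strands of those 250 bases. For FOXP1 alone, the window (chr3:71583729-71583978, minus strand) lay inside the gene span (chr3:70954708-71583978) and not before it. The short SMAD motif CAGAC was found in 2 of the 16, FOXD1 at base -224 and FOXN3 at base -105 counted from the start, against 37.8% of 27305 promoters of the same length. The longer SMAD palindrome GTCTAGAC (0.176% of all promoters), the forkhead motif TGTTTAC (2.98%) and the glucocorticoid receptor hexamer AGAACA (12.4%) were found in 0 of the 16. The full glucocorticoid receptor repeat, AGAACA followed by any 3 bases and TGTTCT, which contains the hexamer, occurred in 0 of the 16 and in 0.00366% of all promoters. The GC content of the 16 ran from 40.8% to 85.6%, against a median of 58.0% over all promoters. These matches describe the letters of the window only.

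Of the 21 expressed members, 19 were expressed in all 4 groups. FOXQ1 reached the level only with both agents, and FOXS1 reached it in every group but dexamethasone. The number expressed was thus 21 with both agents, 19 with dexamethasone, 20 with TGF-β1 and 20 in control. A level of 0.5 CPM would add FOXE1, a thyroid factor, and FOXP3, the factor of regulatory T cells. FOXE1 had 27 reads in all with both agents, 10 with dexamethasone, 44 with TGF-β1 and 24 in control. FOXP3 had 25 reads with both agents, 36 with dexamethasone, 29 with TGF-β1 and 32 in control.

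The low members included several with known roles in lung. FOXA2, the close relative of FOXA1 in lung epithelium, had 13 reads with both agents, 13 with dexamethasone, 10 with TGF-β1 and 22 in control. FOXJ1 had 3 reads with both agents, 2 with dexamethasone, 5 with TGF-β1 and 2 in control, at most 0.224 CPM in a library. FOXF1, the mesenchymal factor, had 5 reads with both agents and 3 in each other group. FOXP2 had 14 reads with both agents, 18 with dexamethasone, 7 with TGF-β1 and 10 in control. FOXH1, the partner of activated SMAD proteins in the early embryo, had 7 reads with both agents, 15 with dexamethasone, 8 with TGF-β1 and 18 in control. At these counts the members missed the count filter, so they were left out of the reported tests between groups. The remaining low members included FOXA3, FOXB1, FOXB2, FOXD3, FOXE3, FOXF2, FOXI1, FOXI2, FOXI3, FOXL2, FOXN1, FOXN4, FOXR1, FOXR2 and the FOXD4 group (FOXD4, FOXD4L1, FOXD4L3, FOXD4L4, FOXD4L5 and FOXD4L6), whose near-identical copies can share reads. No low member passed 26 reads in a library or 2.45 CPM.

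**Figure D1:**
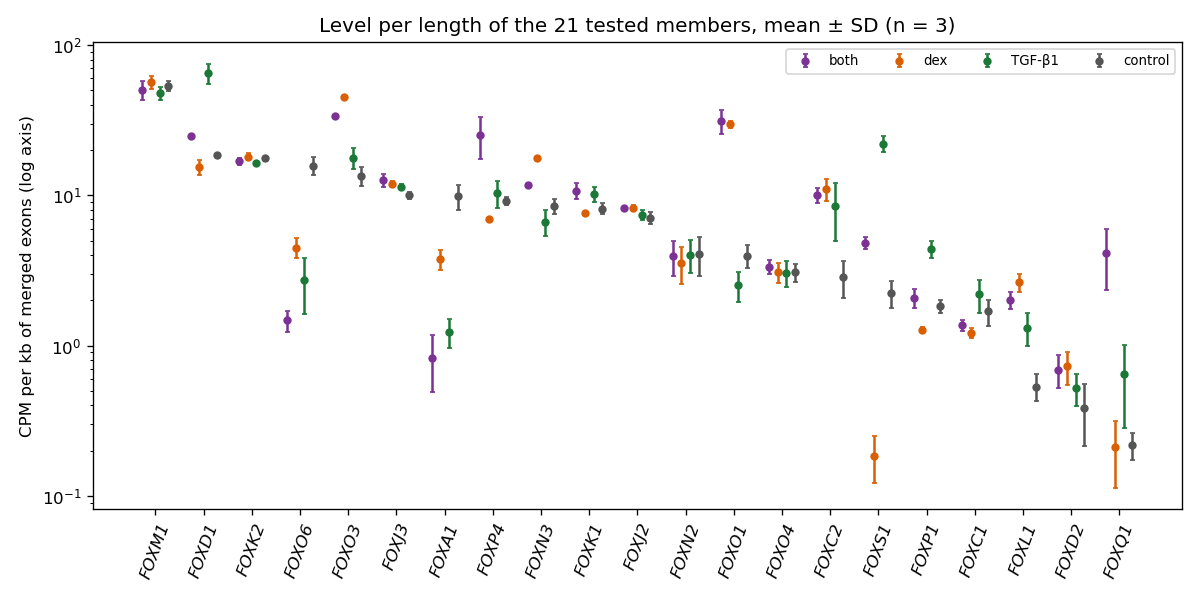
Level of each tested forkhead member as CPM per kb of merged exons (log axis), mean ± SD of 3 libraries, for both agents, dexamethasone (dex), TGF-β1 and control, with members ordered by their control level. FOXM1 sat near 50 CPM per kb in every group, while FOXO1, FOXO3, FOXD1, FOXS1, FOXO6 and FOXA1 spread widely between groups.

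Levels between members were compared per length, as CPM divided by the kb of merged GENCODE 29 exons. The merged length takes in the exons of every annotated transcript, 36714 bases for FOXP1, so the order between members depends on this choice. With TGF-β1, FOXP1 averaged 161 CPM and 4.39 CPM per kb, and FOXS1 29.2 CPM and 22.1 CPM per kb. In control cells FOXM1, which drives the genes of mitosis, led with 53.8 ± 3.93 CPM per kb (SD, n = 3). Next came FOXD1 with 18.5 ± 0.223, FOXK2 with 17.7 ± 0.536 and FOXO6 with 15.8 ± 2.14 CPM per kb, and the gap between FOXO6 and FOXK2 was within the SD of FOXO6, while that to FOXD1 was beyond it. FOXQ1 was lowest of the tested members in control, with 0.218 ± 0.0442 CPM per kb. Treatment reordered the list below FOXM1. With both agents FOXM1 (50.6 CPM per kb) was followed by FOXO3 (33.7), FOXO1 (31.3), FOXP4 (25.2) and FOXD1 (24.9). With dexamethasone the order was FOXM1 (56.5), FOXO3 (45.0) and FOXO1 (29.7), and with TGF-β1 it was FOXD1 (65.0 ± 10.3), FOXM1 (47.7 ± 4.60) and FOXS1 (22.1). The reads of all 49 members summed to 1685 ± 83.5 CPM with both agents, 1663 ± 20.9 with dexamethasone, 1401 ± 56.8 with TGF-β1 and 1195 ± 39.7 in control.

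**Figure D2:**
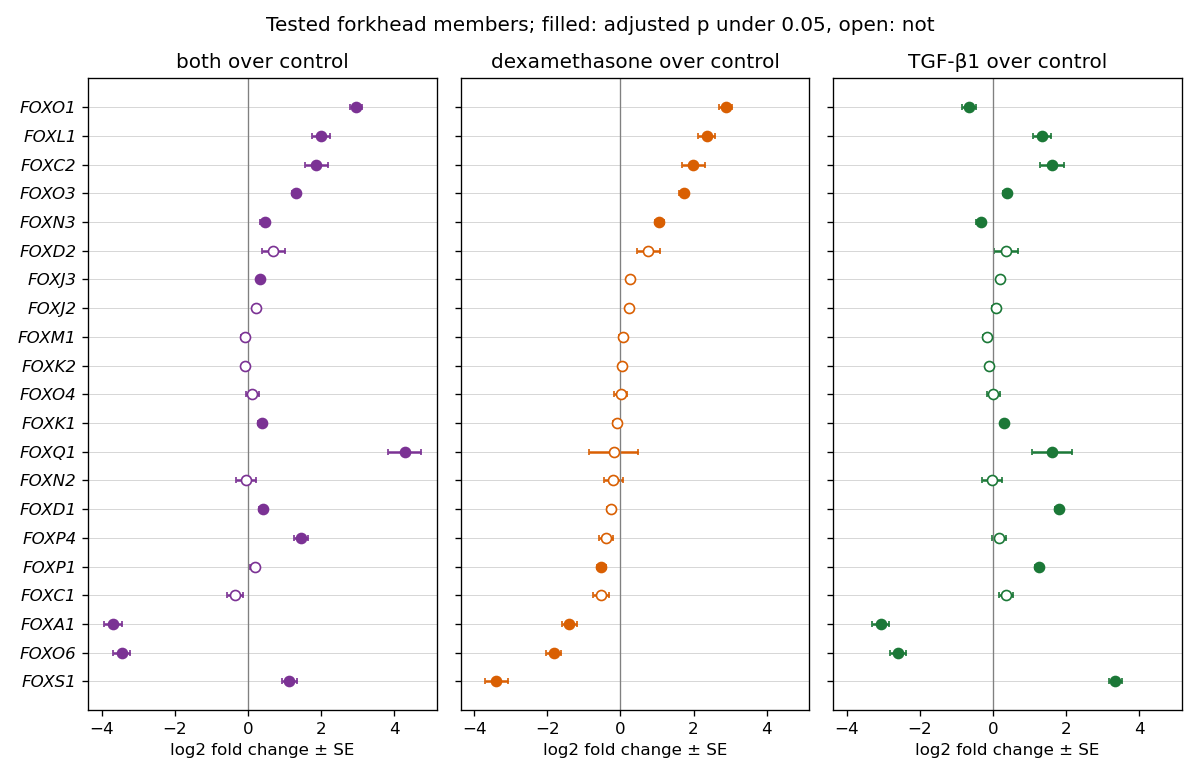
Log2 fold change ± SE of the 21 tested members for both agents, dexamethasone and TGF-β1, each over control; filled points have an adjusted p under 0.05. FOXO1, FOXL1 and FOXC2 head the dexamethasone panel, FOXS1 ends it at -3.39, and in the TGF-β1 panel FOXS1 stands at 3.34.

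Against control, dexamethasone raised 5 and lowered 4 of the 21 tested members. Among all 13469 tested genes 10.4% passed the test in this comparison, 5.54% higher and 4.9% lower. TGF-β1 raised 8 and lowered 4 members against control, beside 32.8% of all tested genes (16.2% higher, 16.6% lower). Both agents raised 11 and lowered 2 members against control, beside 36.6% of all genes (18.5% higher, 18.1% lower). The median log2 change of the members was 0.01 for dexamethasone, 0.19 for TGF-β1 and 0.39 for both agents, while the median of all genes lay between -0.01 and 0.00 in each. These 3 comparisons share the control libraries. On plain library sizes, which move the median of all genes to -0.22 for TGF-β1 and -0.27 for both agents, the split of members was 6 higher and 6 lower for TGF-β1 and 7 higher and 5 lower for both agents. The shares of all genes called on plain library sizes were not counted, so these splits have no background beside them.

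In cells already given TGF-β1, dexamethasone raised 5 and lowered 3 members (both agents over TGF-β1), beside 8.11% of all genes (5.09% higher, 3.01% lower). In cells given dexamethasone, the prior TGF-β1 raised 6 and lowered 4 (both agents over dexamethasone), beside 32.3% of all genes (15.9% higher, 16.4% lower). On plain library sizes, which move the median of all genes to -0.23 in the second of these, that split was 6 higher and 7 lower. The split of the first was then 5 higher and 4 lower, and here too the shares of all genes on plain library sizes were not counted. The median log2 change of the members was 0.11 in the first and 0.08 in the second, and that of all genes was -0.01 and -0.02. In all, 14 of the 21 tested members passed the test in at least 1 comparison, counting the test of interaction described later, and 7 passed in none. With the replicate number added to the fit as a block, 4 passed in none. The share of all genes passing in at least 1 comparison was not counted, so these counts have no background beside them.

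Of the 4 FOXO members, FOXO1 and FOXO3 rose and FOXO6 fell with dexamethasone. FOXO1 (Entrez 2308), a main effector of insulin and stress signals, had 207, 156 and 222 CPM with both agents, 185, 175 and 195 with dexamethasone, 17.5, 11.6 and 18.2 with TGF-β1 and 23.8, 21.1 and 29.4 in control. All 6 libraries with dexamethasone lay far above the 6 without it. On the log2 scale FOXO1 rose by 2.88 with dexamethasone over control (SE 0.17, adjusted p = 1.4e-07) and by 3.61 with both agents over TGF-β1 (SE 0.18, adjusted p = 5.8e-08). Both agents over control gave 2.96 (SE 0.17, adjusted p = 4.0e-08). TGF-β1 alone gave -0.65 (SE 0.18, adjusted p = 0.014), with no overlap between the groups, but without control replicate 3 it gave -0.50 (adjusted p = 0.0758). Between both agents and dexamethasone the groups overlapped and the difference of 0.08 missed the threshold (adjusted p = 0.73).

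FOXO3 (Entrez 2309), which shares most of its targets with FOXO1, had 258, 261 and 262 CPM with both agents, 351, 349.9 and 342 with dexamethasone, 147, 112 and 152 with TGF-β1 and 101, 92.0 and 121 in control. The dexamethasone libraries were highest and those with both agents came next, without overlap, while TGF-β1 and control overlapped. Its log2 fold change was 1.73 for dexamethasone over control (SE 0.12, adjusted p = 2.1e-07), 0.92 for both agents over TGF-β1 (SE 0.11, adjusted p = 8.0e-05) and -0.42 for both agents over dexamethasone (SE 0.11, adjusted p = 0.011). Against control, both agents gave 1.31 (SE 0.11, adjusted p = 9.3e-07). For TGF-β1 over control it was 0.38 (SE 0.11, adjusted p = 0.019), a call lost on plain library sizes (0.17, adjusted p = 0.207) and without control replicate 1 or 2 or TGF-β1 replicate 1 or 3 (0.30 to 0.36, adjusted p from 0.0603 to 0.0908). FOXO3B, a near-identical relative outside the symbol rule that can share reads with FOXO3, averaged 39.6 CPM with both agents, 45.6 with dexamethasone, 27.6 with TGF-β1 and 21.2 in control. It rose by 1.10 on the log2 scale with dexamethasone over control (SE 0.11, adjusted p = 9.7e-06), so the FOXO3 values are uncertain by whatever reads were assigned between the pair.

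FOXO6 (Entrez 100132074), the member of the group known from mouse brain and liver, fell under every treatment against control. It had 3.24, 4.18 and 3.16 CPM with both agents, 9.61, 12.6 and 10.1 with dexamethasone, 5.26, 9.59 and 4.77 with TGF-β1 and 32.3, 42.4 and 39.0 in control. All 9 treated libraries lay below the 3 control libraries, and those with both agents were lowest. Its log2 fold change was -1.82 for dexamethasone (SE 0.20, adjusted p = 2.2e-05), -2.59 for TGF-β1 (SE 0.22, adjusted p = 7.9e-07) and -3.46 for both agents (SE 0.24, adjusted p = 9.8e-08), each over control. Both agents over dexamethasone gave -1.63 (SE 0.25, adjusted p = 0.0002). Both agents over TGF-β1 gave -0.86 (SE 0.27, adjusted p = 0.068), which the fit with the replicate number as a block put past the threshold (adjusted p = 0.0058). FOXO4, the remaining FOXO, averaged 11.6 ± 1.27 CPM with both agents, 10.6 ± 1.63 with dexamethasone, 10.5 ± 2.10 with TGF-β1 and 10.6 ± 1.51 in control (SD, n = 3 each) and passed in no comparison.

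**Figure D3:**
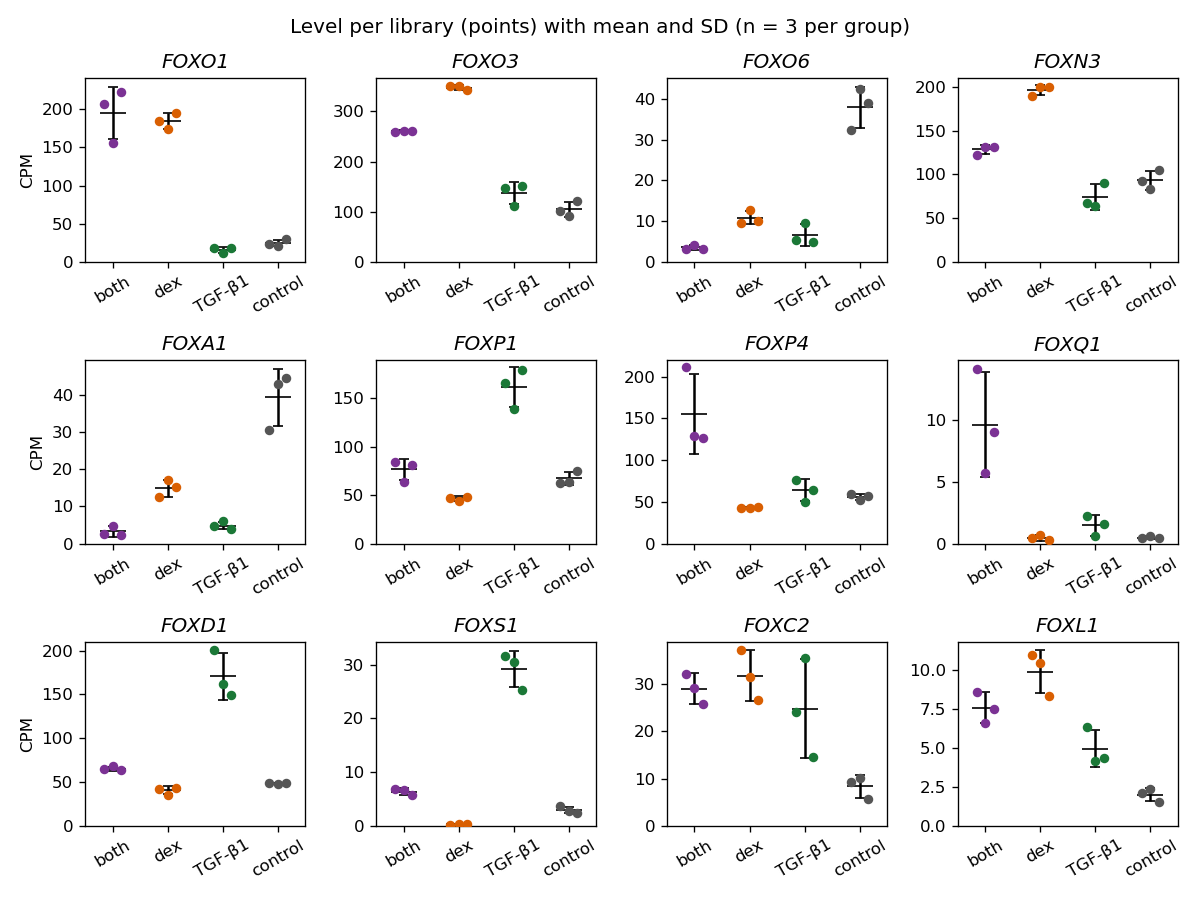
CPM in each library (points) with mean and SD (bars, n = 3) for 12 forkhead members, by group: both agents, dexamethasone (dex), TGF-β1 and control. FOXO1 is high in all 6 libraries with dexamethasone, FOXP4 and FOXQ1 are highest with both agents, and FOXO6 and FOXA1 are highest in control.

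FOXN3 (Entrez 1112), a repressor first described as a checkpoint suppressor, also rose with dexamethasone. It had 123, 132 and 131 CPM with both agents, 189, 199.8 and 200.4 with dexamethasone, 67.3, 63.5 and 90.7 with TGF-β1 and 92.3, 83.3 and 105 in control. Dexamethasone libraries were highest and those with both agents second, while TGF-β1 and control overlapped. FOXN3 had a log2 fold change of 1.07 for dexamethasone over control (SE 0.12, adjusted p = 2.4e-05), 0.79 for both agents over TGF-β1 (SE 0.12, adjusted p = 0.00058) and -0.61 for both agents over dexamethasone (SE 0.12, adjusted p = 0.0013). Both agents over control gave 0.46 (SE 0.12, adjusted p = 0.0084), lost on plain library sizes (0.20, adjusted p = 0.180). TGF-β1 over control gave -0.33 (SE 0.12, adjusted p = 0.048), which missed the threshold with no filter on low counts (adjusted p = 0.0667) and when any library but control replicate 2 or TGF-β1 replicate 3 was left out (-0.24 to -0.34, adjusted p from 0.052 to 0.189). The antisense FOXN3-AS1, whose reads cannot be told apart from FOXN3 by strand here, averaged 1.27 CPM with both agents, 2.99 with dexamethasone, 0.874 with TGF-β1 and 1.45 in control.

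FOXC2 and FOXL1 lie beside each other on chromosome 16 (FOXC2 at chr16:86566829-86569728, FOXL1 at chr16:86578549-86583478, GRCh38.p14), 8.82 kb apart, and both rose under each treatment. FOXC2 (Entrez 2303), known for lymphatic and mesenchymal development, had 32.2, 29.2 and 25.7 CPM with both agents, 37.3, 31.5 and 26.6 with dexamethasone, 24.2, 35.6 and 14.6 with TGF-β1 and 9.25, 10.1 and 5.65 in control. Control was lowest without overlap, and the 3 treated groups overlapped each other. Its log2 fold change over control was 2.00 for dexamethasone (SE 0.31, adjusted p = 0.0011), 1.61 for TGF-β1 (SE 0.32, adjusted p = 0.0022) and 1.87 for both agents (SE 0.32, adjusted p = 0.00064).

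FOXL1 (Entrez 2300), a factor of the mouse gut mesenchyme, had the same order of group means. Its libraries held 8.59, 6.61 and 7.48 CPM with both agents, 10.9, 10.4 and 8.33 with dexamethasone, 6.31, 4.17 and 4.32 with TGF-β1 and 2.12, 2.33 and 1.55 in control. No treated library fell to the control range, and both agents and dexamethasone overlapped. Over control, FOXL1 had a log2 fold change of 2.37 for dexamethasone (SE 0.23, adjusted p = 7.4e-06), 1.35 for TGF-β1 (SE 0.25, adjusted p = 0.00084) and 2.00 for both agents (SE 0.24, adjusted p = 1.7e-05). For both agents over TGF-β1 it was 0.65 (SE 0.21, adjusted p = 0.088, or 0.0096 with the replicate block). Both agents over dexamethasone gave -0.37 (SE 0.20, adjusted p = 0.18), which plain library sizes called lower (-0.57, adjusted p = 0.0281). FOXF1, the third gene of the cluster at 51.4 kb from FOXC2, had only 14 reads over the 12 libraries.

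The FOXP repressors split. FOXP1 (Entrez 27086) had 84.1, 63.9 and 81.4 CPM with both agents, 47.5, 44.2 and 48.4 with dexamethasone, 166, 139 and 179 with TGF-β1 and 62.6, 63.8 and 75.3 in control. TGF-β1 was highest and dexamethasone lowest, both without overlap, while both agents and control overlapped. FOXP1 had a log2 fold change of -0.53 for dexamethasone over control (SE 0.12, adjusted p = 0.010), 1.26 for TGF-β1 over control (SE 0.12, adjusted p = 2.5e-06), -1.07 for both agents over TGF-β1 (SE 0.12, adjusted p = 3.1e-05) and 0.71 for both agents over dexamethasone (SE 0.12, adjusted p = 0.00048). Both agents over control gave 0.18 (adjusted p = 0.26, or 0.040 with the replicate block).

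FOXP4 (Entrez 116113), the close relative of FOXP1, had 211, 129 and 127 CPM with both agents, 42.7, 42.2 and 43.6 with dexamethasone, 76.6, 50.4 and 64.7 with TGF-β1 and 60.0, 52.8 and 56.8 in control. The libraries with both agents stood above all 9 others, and replicate 1 was the highest of them. All dexamethasone libraries lay below those of every other group. FOXP4 had a log2 fold change of 1.45 for both agents over control (SE 0.19, adjusted p = 6.8e-05), 1.28 over TGF-β1 (SE 0.19, adjusted p = 0.00066) and 1.85 over dexamethasone (SE 0.19, adjusted p = 1.3e-05). Either agent alone missed the threshold against control, with -0.40 for dexamethasone (SE 0.19, adjusted p = 0.28) and 0.17 for TGF-β1 (SE 0.19, adjusted p = 0.52).

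FOXQ1 (Entrez 94234), linked in carcinoma cell lines to loss of epithelial character, likewise rose most with both agents, from a low level. It had 14.1, 5.74 and 9.00 CPM with both agents, 0.444, 0.744 and 0.287 with dexamethasone, 2.28, 0.618 and 1.57 with TGF-β1 and 0.455, 0.621 and 0.435 in control. These rest on 87, 33 and 148 reads with both agents and on 3, 5 and 6 reads with dexamethasone, 13, 4 and 28 with TGF-β1 and 3, 4 and 9 in control. Every library with both agents exceeded every other library. The log2 fold change was 4.29 for both agents over control (SE 0.45, adjusted p = 5.2e-06), 2.68 over TGF-β1 (SE 0.38, adjusted p = 0.00031) and 4.47 over dexamethasone (SE 0.46, adjusted p = 5.9e-06). TGF-β1 over control gave 1.61 (SE 0.55, adjusted p = 0.036) with overlapping groups and 2 of 3 same-numbered pairs higher, and missed the threshold without any 1 of the control libraries or of TGF-β1 replicates 1 and 3 (1.35 to 1.73, adjusted p from 0.0502 to 0.162). Of its neighbours on chromosome 6, FOXF2, at 74.8 kb, was too low to test, and FOXC1 passed in no comparison.

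FOXS1 and FOXD1 were the members raised most by TGF-β1 on the log2 scale and were lower when dexamethasone was added. FOXS1 (Entrez 2307), known in mouse from sensory neurons and pericytes, had 6.81, 6.61 and 5.72 CPM with both agents, 0.148, 0.298 and 0.287 with dexamethasone, 31.7, 30.5 and 25.3 with TGF-β1 and 3.64, 2.79 and 2.46 in control. The 4 groups did not overlap, and the dexamethasone libraries held only 1, 2 and 6 reads. The log2 fold change was -3.39 for dexamethasone over control (SE 0.32, adjusted p = 4.8e-06), 3.34 for TGF-β1 over control (SE 0.18, adjusted p = 1.4e-08), -2.20 for both agents over TGF-β1 (SE 0.16, adjusted p = 6.7e-07), 4.53 for both agents over dexamethasone (SE 0.29, adjusted p = 8.6e-08) and 1.14 for both agents over control (SE 0.19, adjusted p = 0.00039).

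FOXD1 (Entrez 2297), a factor of stromal progenitors in mouse kidney and lung, had 64.7, 67.9 and 63.3 CPM with both agents, 42.4, 35.1 and 43.6 with dexamethasone, 201, 161 and 149 with TGF-β1 and 48.5, 48.1 and 49.3 in control. TGF-β1 was highest and both agents second, without overlap, and the dexamethasone libraries all lay below control. The log2 fold change was 1.81 for TGF-β1 over control (SE 0.11, adjusted p = 4.8e-08), -1.38 for both agents over TGF-β1 (SE 0.11, adjusted p = 1.3e-06) and 0.68 for both agents over dexamethasone (SE 0.11, adjusted p = 0.00034). Both agents over control gave 0.42 (SE 0.11, adjusted p = 0.0086), lost on plain library sizes (0.16, adjusted p = 0.232), and dexamethasone over control gave -0.26 (SE 0.11, adjusted p = 0.19). The summed fibroblast markers given earlier were also higher with TGF-β1 than in control, and highest with both agents, where FOXS1 and FOXD1 were lower than with TGF-β1. Of these markers 5 were tested. TGF-β1 over control raised 3 and lowered 1 (4 and 1 with the block), with a median log2 change of 0.63, beside 32.8% of all genes. Both agents over TGF-β1 raised 1 and lowered 0 (1 and 1 with the block), beside 8.11% of all genes. The median log2 change of the 5 markers there was -0.21. The part of those markers in the FOXS1 and FOXD1 values was not tested.

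FOXA1 (Entrez 3169), the pioneer factor of lung epithelium, fell under every treatment. It had 2.75, 4.87 and 2.31 CPM with both agents, 12.6, 17.1 and 15.1 with dexamethasone, 4.73, 6.03 and 3.93 with TGF-β1 and 30.5, 42.8 and 44.5 in control. Control was highest and dexamethasone second, without overlap, while both agents and TGF-β1 overlapped. The log2 fold change over control was -1.40 for dexamethasone (SE 0.20, adjusted p = 0.00027), -3.06 for TGF-β1 (SE 0.23, adjusted p = 3.4e-07) and -3.68 for both agents (SE 0.25, adjusted p = 9.6e-08). Both agents over dexamethasone gave -2.28 (SE 0.26, adjusted p = 1.5e-05), and both agents over TGF-β1 gave -0.62 (SE 0.30, adjusted p = 0.30).

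The calls of FOXK1 and FOXJ3 were small. FOXK1 (Entrez 221937), a repressor of autophagy genes, had 144, 122 and 156 CPM with both agents, 104, 100.4 and 97.3 with dexamethasone, 133, 118 and 149 with TGF-β1 and 101, 102 and 118 in control. The libraries with TGF-β1, alone or with dexamethasone, lay above those without it, by as little as 117.7 CPM in TGF-β1 replicate 2 against 117.5 CPM in control replicate 3. Its log2 fold change was 0.49 for both agents over dexamethasone (SE 0.11, adjusted p = 0.0030), 0.39 for both agents over control (SE 0.11, adjusted p = 0.0099) and 0.32 for TGF-β1 over control (SE 0.11, adjusted p = 0.034). The last 2 calls were lost on plain library sizes (0.13 and 0.11, adjusted p = 0.272 and 0.400), the first of them also without replicate 3 of both agents (0.31, adjusted p = 0.0525), and the second without control replicate 1 or 2 or TGF-β1 replicate 1 or 3 (0.23 to 0.32, adjusted p from 0.0771 to 0.158).

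FOXJ3 (Entrez 22887), which acts in mouse muscle and germ cells, had 96.6, 86.0 and 79.5 CPM with both agents, 84.9, 84.5 and 77.7 with dexamethasone, 75.3, 81.8 and 79.0 with TGF-β1 and 73.5, 65.8 and 67.7 in control. Every treated library exceeded every control library. Both agents over control gave 0.34 (SE 0.09, adjusted p = 0.0072), lost on plain library sizes (0.08, adjusted p = 0.479). Dexamethasone gave 0.25 (adjusted p = 0.084) and TGF-β1 0.19 (adjusted p = 0.11) over control, which the replicate block put at adjusted p = 0.0076 and 0.018.

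The 7 tested members past the test in no comparison were FOXC1, FOXD2, FOXJ2, FOXK2, FOXM1, FOXN2 and FOXO4. FOXM1 averaged 248 ± 35.9 CPM with both agents, 277 ± 26.5 with dexamethasone, 234 ± 22.5 with TGF-β1 and 263 ± 19.3 in control (SD, n = 3 each). Its change with TGF-β1 over control was -0.17 (SE 0.11, adjusted p = 0.27), and -0.16 for both agents over dexamethasone (SE 0.11, adjusted p = 0.31). With the replicate block these became calls, at adjusted p = 0.0092 and 0.011. On plain library sizes FOXM1 was called lower for TGF-β1 over control (-0.38, adjusted p = 0.0234), for both agents over dexamethasone (-0.36, adjusted p = 0.0273) and for both agents over control (-0.35, adjusted p = 0.0286). FOXK2, the relative of FOXK1, averaged 168 ± 8.19 CPM with both agents, 181 ± 9.08 with dexamethasone, 164 ± 4.95 with TGF-β1 and 177 ± 5.36 in control. It too was called lower on plain library sizes in those 3 comparisons, with -0.32, -0.31 and -0.34 (adjusted p = 0.00183, 0.00217 and 0.00103). FOXJ2 averaged 51.7 ± 1.16 CPM with both agents, 52.0 ± 1.98 with dexamethasone, 46.5 ± 3.60 with TGF-β1 and 44.5 ± 4.09 in control. The block called FOXJ2 with dexamethasone (0.23, adjusted p = 0.026 against 0.14 without it) and with both agents (0.23, adjusted p = 0.014 against 0.068), each over control.

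FOXC1, the relative of FOXC2 in mesenchymal development, averaged 5.37 ± 0.438 CPM with both agents, 4.76 ± 0.364 with dexamethasone, 8.65 ± 2.15 with TGF-β1 and 6.62 ± 1.32 in control. All libraries with both agents lay below those with TGF-β1, a difference of -0.72 (SE 0.21, adjusted p = 0.053, or 0.0059 with the block), and all dexamethasone libraries lay below control (-0.53, SE 0.21, adjusted p = 0.16, or 0.030 with the block). On plain library sizes FOXC1 was called lower with both agents over TGF-β1 (-0.76, adjusted p = 0.0316) and over control (-0.62, adjusted p = 0.0236). FOXN2 averaged 21.6 ± 5.71 CPM with both agents, 19.5 ± 5.37 with dexamethasone, 22.1 ± 5.36 with TGF-β1 and 22.3 ± 6.44 in control. FOXD2 averaged 3.24 ± 0.787 CPM with both agents, 3.41 ± 0.837 with dexamethasone, 2.44 ± 0.588 with TGF-β1 and 1.80 ± 0.794 in control.

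**Figure D4:**
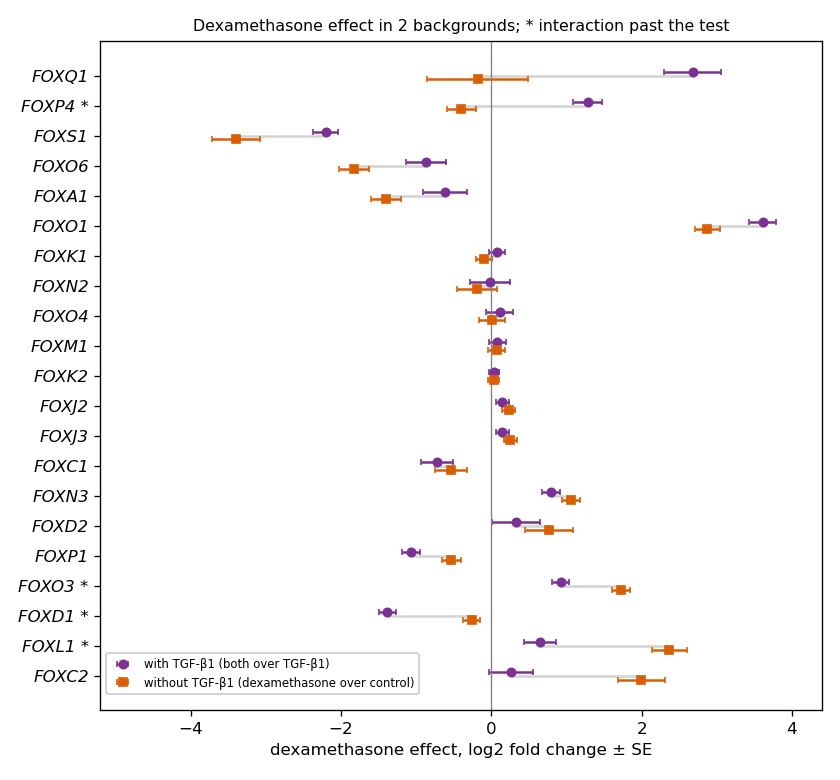
Log2 fold change ± SE of dexamethasone with TGF-β1 (both agents over TGF-β1, circles) and without it (dexamethasone over control, squares) for the 21 tested members, ordered by the difference between them; an asterisk marks an interaction with an adjusted p under 0.05. FOXP4 moves to the right with TGF-β1, and FOXO3, FOXD1 and FOXL1 to the left.

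Whether the dexamethasone effect differed with and without TGF-β1 was tested as an interaction (both agents over TGF-β1, less dexamethasone over control, in log2). It passed for 4 of the 21 tested members, 1 higher and 3 lower, beside 0.884% of all tested genes (0.483% higher, 0.401% lower). FOXP4 had an interaction of 1.68 (SE 0.27, adjusted p = 0.012) and FOXD1 of -1.12 (SE 0.16, adjusted p = 0.0034), and both stayed past the threshold in every alternative run. FOXL1 had -1.72 (SE 0.32, adjusted p = 0.022), since dexamethasone changed it by 0.65 with TGF-β1 and by 2.37 without, but the call was lost without control replicate 1 or 3, TGF-β1 replicate 1, dexamethasone replicate 1 or 2, or replicate 3 of both agents (-1.46 to -1.77, adjusted p from 0.0503 to 0.105). FOXO3 had -0.80 (SE 0.16, adjusted p = 0.033), lost when any library but control replicate 3 or TGF-β1 replicate 2 was left out (-0.71 to -0.81, adjusted p from 0.0555 to 0.0984).

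With the replicate number as a block, 9 members passed the test of interaction, 4 higher and 5 lower, beside 4.78% of all genes (3.01% higher, 1.77% lower). The interaction values and SE that follow are from the fit without the block. FOXO1 had an interaction of 0.73 (SE 0.24), with an adjusted p of 0.29 without the block and 0.00057 with it. For FOXP1 it was -0.54 (SE 0.17), at 0.25 without the block and 0.0014 with it. FOXC2 had -1.74 (SE 0.43), at 0.12 without and 0.0071 with the block. The other 2 added were FOXQ1 (2.86, SE 0.80), at 0.17 without and 0.011 with the block, and FOXO6 (0.96, SE 0.34), at 0.36 without and 0.013 with it. FOXC2 thus had the same sign as its neighbour FOXL1, and FOXQ1 the same sign as FOXP4. The median interaction was 0.01 over the 21 members and -0.01 over all genes.

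Lists of genes tied to the forkheads were described beside them. With the replicate block, which changes the counts in these lists, 22.2% of all tested genes passed for dexamethasone over control (10.8% higher, 11.4% lower) and 50.0% for TGF-β1 over control (24.6% higher, 25.5% lower). For both agents it was 17.5% over TGF-β1 (9.47% higher, 8.0% lower) and 49.9% over dexamethasone (24.0% higher, 26.0% lower). Of 30 tested genes known as FOXO targets, dexamethasone over control raised 9 and lowered 3 (10 and 6 with the block), beside 5.54% of all genes higher and 4.9% lower, with a median log2 change of 0.04. The largest rises were in PDK4 (4.89), which restrains glucose oxidation, KLF15 (4.17), a factor of amino acid breakdown, and FBXO32 (2.37), a ubiquitin ligase of muscle atrophy, all of which are also known glucocorticoid receptor targets. KLF15 averaged 4.13 CPM with both agents, 53.5 with dexamethasone, 0.449 with TGF-β1 and 2.83 in control, and FBXO32 averaged 245 CPM with both agents, 272 with dexamethasone, 91.4 with TGF-β1 and 52.8 in control. TNFSF10, a death ligand, fell by 1.81 (adjusted p = 0.0079), and BCL2L11, a pro-apoptotic BCL2 relative, by 0.94 (adjusted p = 0.00013). Both agents over TGF-β1 raised 6 and lowered 0 of the 30 (8 and 3 with the block), beside 5.09% of all genes higher and 3.01% lower, with IRS2 at 2.02. The interaction passed for GADD45A (0.97) and BCL2L11 (0.86) in one direction and for SESN1 (-1.36) and FBXO32 (-0.95) in the other. These 2 higher and 2 lower stood beside 0.483% and 0.401% of all genes. With the block it was 2 higher and 3 lower, beside 3.01% and 1.77%.

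Of 29 tested regulators of FOXO, such as AKT and 14-3-3 genes, dexamethasone raised 3 and lowered 1 (6 and 3 with the block), beside 10.4% of all genes called. The risers were SGK1 (3.08), PIK3R1 (2.29), a regulatory subunit of PI3K, and IRS2 (1.67), and the one that fell was YWHAG (-0.34). TGF-β1 raised 5 and lowered 5 of them (8 and 7 with the block), a share near the 32.8% of all genes called.

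Of 22 FOXM1 targets, TGF-β1 over control raised 0 and lowered 16 (0 and 21 with the block), beside 16.2% of all genes higher and 16.6% lower, with a median log2 change of -0.40. Both agents over dexamethasone raised 0 and lowered 17 (0 and 20 with the block), beside 15.9% of all genes higher and 16.4% lower, with a median of -0.38. BUB1B, a spindle checkpoint kinase, fell by 0.92 with TGF-β1 (adjusted p = 0.00021), ECT2, a cytokinesis factor, by 0.84 (adjusted p = 0.00086) and CDC25B, a mitotic phosphatase, by 0.73 (adjusted p = 1.2e-05). Dexamethasone over control raised 1 and lowered 2 of them (3 and 4 with the block), beside 10.4% of all genes called. FOXM1 itself missed the threshold in these comparisons, other than with the block or on plain library sizes.

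For the next 3 lists, 32.8% of all genes were called with TGF-β1 and 10.4% with dexamethasone, each over control. Of the FOXJ1 cilia list only 10 of 22 genes were tested, and TGF-β1 over control raised 2 (CCDC40 and RFX2) and lowered 3 (DNAH11, TP73 and CAPS). Of 24 tested cofactors of forkheads, dexamethasone raised 2 and lowered 4 (5 and 5 with the block) and TGF-β1 raised 5 and lowered 5 (8 and 9 with the block). TLE3, a Groucho-type corepressor, averaged 64.3 CPM with both agents, 24.3 with dexamethasone, 64.3 with TGF-β1 and 47.3 in control. Without the block it had the only interaction among the cofactors (0.97, SE 0.19, adjusted p = 0.027), beside 0.884% of all genes. With the block 2 cofactors passed in the higher direction and 0 in the lower, beside 4.78% of all genes. Of 13 tested lung epithelial factors outside the family, dexamethasone raised 2 and lowered 5 and TGF-β1 raised 1 and lowered 4 (3 and 6 with the block). ELF3, an epithelial ETS factor, fell by 2.02 with dexamethasone (adjusted p = 2.3e-06) and by 3.14 with TGF-β1 (adjusted p = 5.6e-08), and SOX9, a factor of airway progenitors, fell by 2.68 with dexamethasone (adjusted p = 1.0e-05).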

How the data were processed

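Poly(A) RNA from 12 BEAS-2B cultures (4 groups of 3) was sequenced from non-directional NEBNext Ultra libraries, per the labels' protocols. The deposited table holds raw read counts per Entrez gene, made by the authors with featureCounts on hg38, per the submitters' processing notes; for the aligner, annotation and strand setting, nothing was given in the sources used here. Columns were matched to samples by their label, and 6 columns without one were not used. Identifiers were matched to RefSeq GRCh38.p14 (27745 of 28395).

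From the counts, genes passing edgeR's filterByExpr (minimum count 10) were fitted over all 12 libraries with TMM scaling and the robust quasi-likelihood test of edgeR 4.0.16 (with R 4.3.3 and limma 3.58.1), and p-values were adjusted by Benjamini-Hochberg over 13469 genes. SE is the log2 fold change divided by the root of F. Python 3.11.15, pandas 2.3.3 and matplotlib 3.10.9 made the tables and figures. The fit was tested on simulated data. Alternatives were library size alone, DESeq2's size factors, DESeq2 1.42.0, no filter, 0.5 CPM as the expressed level, a replicate block, and leaving out each library. Replicate numbers came from the labels. In 18 of 18 pairs of same-numbered libraries the deviations from group means correlated above 0.1 (0.250 to 0.541). The numbers were thus taken to pair the libraries. Values not marked as blocked, and the figures of fold change, come from the fit without this pairing. Blocked values are printed beside each member whose call they change and beside the printed list counts they change. The block lowered the biological coefficient of variation to 0.0577, against 0.122 without it. Depth limits the precision of low genes. Members are accounted for by value or by range, 1 low member is not reported here by name, and list genes are the largest changes past the test. Members and lists were chosen with earlier results of these data known. The labels call the triplicates biological without naming passages or days, so p-values measure the spread between these libraries.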

Additional observations from a re-analysis of the deposited data

Results flagged for a closer look

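For 4 forkhead members the dexamethasone effect differed between cells with and without TGF-β1 by the test of interaction itself. FOXP4 had an interaction of 1.68 on the log2 scale, with a dexamethasone effect of 1.28 with TGF-β1 and of -0.40 without it. FOXD1 had -1.12, from effects of -1.38 and -0.26. FOXL1 had -1.72, from effects of 0.65 and 2.37. FOXO3 had -0.80, from effects of 0.92 and 1.73. What lies behind these differences was not tested. The FOXL1 and FOXO3 calls were lost when single libraries named in the report were left out, and the FOXP4 and FOXD1 calls were kept.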

How the results depend on the processing

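Of 56 calls of members, 45 were kept under all 17 alternatives, 12 of which left out 1 library each, and 0 changed direction. The 9 calls of dexamethasone over control, the 8 of both agents over TGF-β1 and the 10 of both agents over dexamethasone were kept under every alternative. The 11 calls lost at least once are given beside their values in the report: FOXK1, FOXN3, FOXO1, FOXO3 and FOXQ1 for TGF-β1 over control, FOXD1, FOXJ3, FOXK1 and FOXN3 for both agents over control, and FOXL1 and FOXO3 for the interaction. The count of interactions was 4, and 9 with the replicate block, which lowered the estimated spread between libraries; it was 6 with DESeq2 and 2 to 5 when libraries were left out in turn. The block took away 0 calls of members and added others. With it 12 members were called for dexamethasone over control (7 higher, 5 lower), beside 22.2% of all genes. For TGF-β1 over control it called 14 (9 higher, 5 lower), beside 50.0%. Both agents gave 11 over TGF-β1 (6 higher, 5 lower), beside 17.5%, and 11 over dexamethasone (6 higher, 5 lower), beside 49.9%. Both agents over control gave 15 (13 higher, 2 lower). The share of all genes with the block was not counted there, and the 36.6% without the block is not a like comparison. The number expressed was 21, and 23 at 0.5 CPM. Plain library sizes moved the split of higher and lower calls in TGF-β1 over control, both agents over control and both agents over dexamethasone. There they also added calls of FOXC1, FOXK2, FOXL1 and FOXM1, all lower. In both agents over TGF-β1 they added a lower call of FOXC1, for 5 higher and 4 lower. Shares of all genes called on plain library sizes were not counted, and the cause was not tested. Depth limits FOXQ1, FOXS1 and the 28 untested members, whose values rest on few reads.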
